A study of Mus musculus with 6 samples.

Results

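The 10 genes described here, Fos, Fosb, Junb, Egr1, Egr2, Arc, Npas4, Nr4a1, Dusp1 and Ier2, are immediate early genes that neuronal activity induces, and they were taken by name from the 37273 genes of the GENCODE annotation of mm9. Acetylation of lysine 5 of histone H4 (H4K5ac) was measured at them by ChIP-Seq in whole hippocampus of C57/BL6 mice aged 6 months per the labels. Mice of the FC group (contextual fear conditioning) received a foot shock in a context on day 1 and day 2 and were tested for memory on day 3, and mice of the CON group were exposed to the same context without a shock. The hippocampus was collected 1 h after the test on day 3. For each group 1 library came from chromatin pulled down with the H4K5ac antibody (H4K5ac-ChIP), 1 from a mock pull-down with IgG (IgG-IP) and 1 from genomic DNA (input), which gave 6 libraries and no replicates. No difference between FC and CON could therefore be tested, and every interval given is an exact 95% interval that covers counting error only.

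Immediate early genes are transcribed within minutes of synaptic activity, without new protein synthesis, because their promoters are held ready for the kinases and transcription factors that calcium entry activates. Their products are mostly transcription factors that start a later wave of genes, and expression of Fos, Arc and Egr1 is widely used to mark hippocampal neurons that took part in learning. H4K5ac is a mark of active chromatin. The hippocampus holds neurons, glia and vascular cells, so reads came from a mixture of nuclei, and a mark on more cells cannot be told apart from more of the mark per cell.

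The promoters of these genes are known for cAMP response elements (CRE), which bind Creb1, and the 250 bp directly upstream of the outermost TSS are shown for a set of genes that differ in them. They are mm9 sequence read 5′ to 3′ on the strand of the gene, with the full CRE (TGACGTCA), its 5-base part (TGACG) and the TATA motif (TATAAA) in capitals, each searched on both strands. A 5-base match lies inside every full CRE. The first pair holds separate 5-base matches, the next pair holds a full CRE, and Arc holds none of these letters.
Fos (chr12:86814590-86814839, + strand): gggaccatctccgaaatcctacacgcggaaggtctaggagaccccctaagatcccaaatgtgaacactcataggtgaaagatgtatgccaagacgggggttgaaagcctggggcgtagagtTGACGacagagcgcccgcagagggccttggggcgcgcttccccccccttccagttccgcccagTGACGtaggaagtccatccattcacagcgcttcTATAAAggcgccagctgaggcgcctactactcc
Npas4 (chr19:4989972-4990221, - strand): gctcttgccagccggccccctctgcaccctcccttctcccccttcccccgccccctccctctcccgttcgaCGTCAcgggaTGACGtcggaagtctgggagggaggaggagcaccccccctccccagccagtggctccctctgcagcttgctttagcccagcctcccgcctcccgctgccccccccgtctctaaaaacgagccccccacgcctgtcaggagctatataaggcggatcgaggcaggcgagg
Dusp1 (chr17:26645465-26645714, - strand): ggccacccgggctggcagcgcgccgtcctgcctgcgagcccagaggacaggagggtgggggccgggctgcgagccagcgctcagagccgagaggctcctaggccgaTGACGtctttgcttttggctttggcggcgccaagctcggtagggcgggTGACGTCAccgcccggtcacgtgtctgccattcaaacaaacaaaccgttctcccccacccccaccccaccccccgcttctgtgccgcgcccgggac
Ier2 (chr8:87186752-87187001, - strand): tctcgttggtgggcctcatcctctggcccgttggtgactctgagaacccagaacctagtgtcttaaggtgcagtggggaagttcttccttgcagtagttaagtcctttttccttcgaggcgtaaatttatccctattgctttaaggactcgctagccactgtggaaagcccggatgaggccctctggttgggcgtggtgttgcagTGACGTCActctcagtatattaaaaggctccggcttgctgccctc
Arc (chr15:74503001-74503250, - strand): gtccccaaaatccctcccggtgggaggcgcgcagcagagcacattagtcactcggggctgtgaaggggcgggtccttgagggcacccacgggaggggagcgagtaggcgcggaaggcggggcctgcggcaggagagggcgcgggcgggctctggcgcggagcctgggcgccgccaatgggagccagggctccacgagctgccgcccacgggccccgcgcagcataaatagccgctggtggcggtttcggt
The 5-base CRE match was present in 8 of 10 genes, all but Egr2 and Arc, against 19.4% of 22367 protein-coding genes. A full CRE was found in Dusp1 and Ier2 against 1.91% of protein-coding genes. The TATA motif was found in Fos and Junb against 12.3%. The CArG box, which binds serum response factor, was found in Egr1 against 1.34%, and a site of the Egr family was found in Fosb and Nr4a1 against 3.87%. When the window of Egr2 was placed at the start of its longest coding transcript, 2394 bp further downstream, it held a CArG box and 2 of the 5-base matches. Only 250 bp per start were searched, so a gene without a match can hold one further upstream. These are matches of letters and were not tested as binding sites.

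The 10 genes are short, from 1522 to 7947 bp with a median of 3633 bp, against a median of 15427 bp for protein-coding genes. They are also rich in GC. The GC content of the 10 kb centred on the TSS ranged from 49.9% in Fos to 56.7% in Arc, with a median of 52.5% against 45.6% for protein-coding genes. In the 2 kb upstream of the TSS the median GC content was 54.8% against 46.1%, and the ratio of observed to expected CpG was 0.461 against 0.281. GC content is given here because the ratios between FC and CON libraries moved with it, as described with the comparisons.

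In mm9 the AP-1 subunit genes lie at chr12:86814840-86818223 (Fos, 4 exons, + strand), chr7:19888070-19895394 (Fosb, 4 exons, - strand) and chr8:87500811-87502617 (Junb, 1 exon, - strand). The zinc finger genes lie at chr18:35020861-35024638 (Egr1, 2 exons, + strand) and chr10:66998223-67004936 (Egr2, 2 exons, + strand). Npas4 lies at chr19:4984355-4989971 with 8 exons on the - strand, and Nr4a1 at chr15:101097277-101105223 with 7 exons on the + strand. Arc lies at chr15:74499513-74503000 with 3 exons on the - strand, Dusp1 at chr17:26642535-26645464 with 4 exons on the - strand, and Ier2 at chr8:87185230-87186751 with 1 exon on the - strand. Exons are those of the longest coding transcript. The window of 5 kb either side of the TSS held part of another gene in 3 cases. It held 1116 bp of Prdx2 at Junb and the 325 bp of Gm17507 at Egr1. At Ier2 it held 2725 bp of the lincRNA Gm2529, whose TSS is 2276 bp upstream of that of Ier2.

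Libraries held 31605738 reads for FC and 35962226 for CON H4K5ac-ChIP, 14549689 and 16491741 for IgG-IP, and 45673239 and 35493806 for input. From 11.47% to 17.84% of the reads of a library were further copies at a start and strand already counted once. Read density is given as RPKM, the reads scaled to the length of the region and the size of the library, and unless stated otherwise it was taken over the 5 kb either side of the TSS. Markers of the labelled tissue could not show which cells the reads came from. The median density of 10 genes of other tissues, such as Alb and Ins1, was 0.380 in FC and 0.414 in CON H4K5ac-ChIP, against 0.638 and 0.577 for 10 neuronal markers such as Camk2a and Rbfox3. The liver genes Apoa1, Apoa2 and Fgb were exceptions, with 0.968, 0.854 and 0.725 in FC. The 5 oligodendrocyte markers had medians of 0.870 and 0.876, the 5 astrocyte markers 0.690 and 0.762, and the 5 microglial markers 0.617 and 0.528.

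H4K5ac density at the immediate early genes was above that of most protein-coding genes in both groups, but it differed widely among them. The median was 0.769 RPKM in FC against 0.582 for protein-coding genes, with 9 of the 10 genes above the latter, and 0.738 in CON against 0.564, with 7 above. In input the median was 0.600 in FC against 0.490, also with 9 above, and 0.392 in CON against 0.406, with 2 above. All 10 genes had more than 50 reads in the 5 kb upstream of the TSS in both groups, as did 65.0% of annotated genes in FC and 68.1% in CON.

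Among the AP-1 subunits, Junb had the highest density. Fos, the classic marker of neuronal activation, had 210 H4K5ac-ChIP reads in the FC library and 200 in the CON library, 45 and 58 IgG-IP reads, and 279 and 130 input reads, FC first throughout. Fosb, whose truncated product accumulates on repeated activity, had 227 and 261 H4K5ac-ChIP reads, 35 and 59 IgG-IP reads, and 269 and 117 input reads. Junb, a partner of the Fos proteins, had 285 and 298 H4K5ac-ChIP reads, 31 and 56 IgG-IP reads, and 235 and 138 input reads. The H4K5ac-ChIP densities of Fos, Fosb and Junb were 0.664, 0.718 and 0.902 RPKM in FC and 0.556, 0.726 and 0.829 in CON.

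The other transcription factors spanned the widest range. Nr4a1, an orphan nuclear receptor, had 342 and 321 H4K5ac-ChIP reads, 51 and 49 IgG-IP reads, and 287 and 132 input reads. Egr1, a zinc finger protein required for lasting synaptic plasticity, had 235 and 244 H4K5ac-ChIP reads, 38 and 56 IgG-IP reads, and 279 and 142 input reads. Npas4, a factor that is induced by calcium and acts on inhibitory synapses, had 197 and 187 H4K5ac-ChIP reads, 60 and 59 IgG-IP reads, and 265 and 160 input reads. Egr2, a zinc finger protein also known for hindbrain patterning and myelination, had the fewest H4K5ac-ChIP reads, 139 in each group, with 50 and 56 IgG-IP reads and 206 and 158 input reads. Its densities of 0.440 RPKM in FC and 0.387 in CON were below the medians of protein-coding genes, and 35.0% and 31.6% of those genes were lower still.

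The remaining genes included the pair with the highest densities. Arc, a cytoskeletal protein that removes AMPA receptors from synapses, had 376 and 332 H4K5ac-ChIP reads, 50 and 65 IgG-IP reads, and 333 and 135 input reads. Dusp1, a phosphatase that switches off MAP kinases, had 359 and 402 H4K5ac-ChIP reads, 62 and 60 IgG-IP reads, and 310 and 140 input reads. Ier2, a nuclear protein that growth factors induce, had 251 and 270 H4K5ac-ChIP reads, 53 and 58 IgG-IP reads, and 247 and 143 input reads. The H4K5ac-ChIP density of Arc exceeded that of 98.3% of protein-coding genes in FC and 92.9% in CON, and that of Dusp1 exceeded 97.5% and 98.6%. In input, Arc exceeded 98.1% of them in FC and 34.3% in CON, and Dusp1 exceeded 93.7% and 42.4%.

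**Figure D1:**
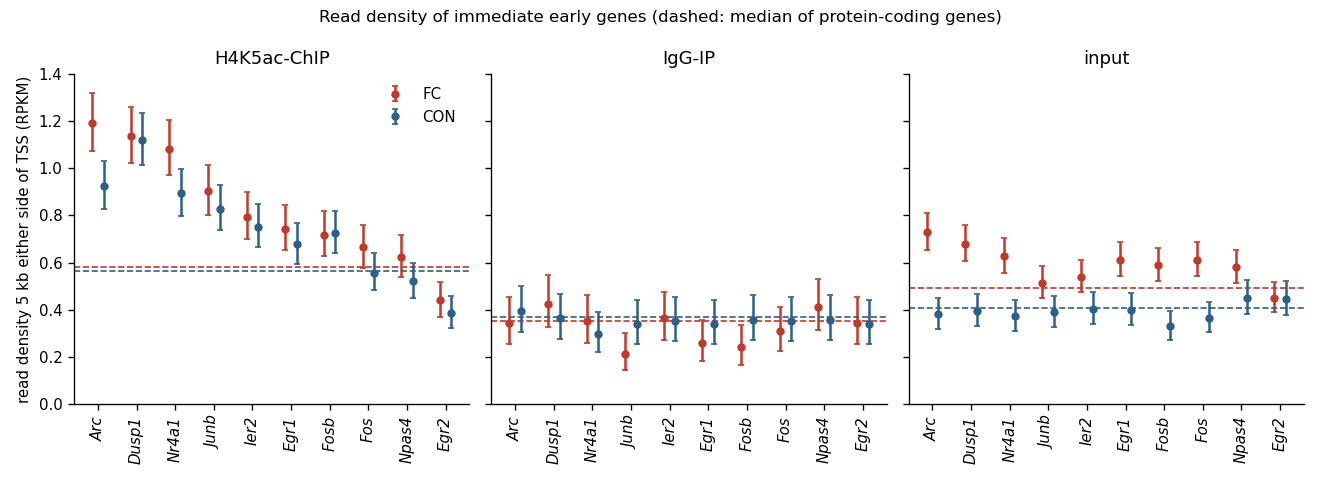
Read density (RPKM, vertical axis) of the 10 immediate early genes in H4K5ac-ChIP, IgG-IP and input of FC and CON, ordered by the FC H4K5ac-ChIP value, with exact Poisson 95% intervals of single libraries and the median of protein-coding genes dashed. H4K5ac-ChIP ran from 0.440 at Egr2 to 1.19 at Arc in FC, while IgG-IP stayed between 0.213 and 0.426, and FC input lay above CON input at all 10 genes.

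In order of H4K5ac density in FC, the genes ran Arc (1.19), Dusp1 (1.14), Nr4a1 (1.08), Junb (0.902), Ier2 (0.794), Egr1 (0.744), Fosb (0.718), Fos (0.664), Npas4 (0.623) and Egr2 (0.440). Neighbours in this order differed beyond the counting interval of their ratio between Nr4a1 and Junb and between Npas4 and Egr2, and nowhere else. In CON the order was Dusp1 (1.12), Arc (0.923), Nr4a1 (0.893), Junb (0.829), Ier2 (0.751), Fosb (0.726), Egr1 (0.678), Fos (0.556), Npas4 (0.520) and Egr2 (0.387). Here the steps from Dusp1 to Arc, from Egr1 to Fos and from Npas4 to Egr2 exceeded it. The 3 genes with the highest and the 3 with the lowest density were the same in both groups. In FC input the 3 highest were also Arc, Dusp1 and Nr4a1, while in CON input they were Npas4, Egr2 and Ier2.

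Against the mock immunoprecipitation, H4K5ac was higher at every one of the 10 genes in both groups, as it was at 65.3% of annotated genes in FC and 63.7% in CON. The log2 ratio of H4K5ac-ChIP to IgG-IP had a median of 1.46 for FC and 1.06 for CON, against 0.53 and 0.44 for all genes and 0.73 and 0.63 for protein-coding genes. In FC, 8 genes were at least 2 times higher, all but Egr2 and Npas4, where 29.8% of annotated genes passed. In CON, Fosb, Junb, Arc, Nr4a1, Dusp1 and Ier2 passed, 6 of 10, where 23.0% of annotated genes did. The highest ratios were at Junb in FC, with a log2 ratio of 2.08 (interval 1.54 to 2.67), and at Dusp1 in CON, with 1.62 (1.23 to 2.04). At Egr2 the interval included 0 in both groups, with log2 ratios of 0.36 (-0.12 to 0.85) and 0.19 (-0.27 to 0.66). Less the median of genes matched for GC content, the median over the 10 genes was 0.11 in FC, with 8 genes above 0 and a range of -0.97 to 0.59. In CON it was -0.0025, with 5 above 0 and a range of -0.89 to 0.65, and no gene passed 2-fold above in either group.

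Against input the ratio was lower in FC than in CON. The median log2 ratio of H4K5ac-ChIP to input was 0.42 in FC and 0.99 in CON, with 0.12 and 0.34 for all genes. No gene was 2 times above input in FC, where 5.22% of annotated genes were, and Fosb, Junb, Arc, Nr4a1 and Dusp1 were in CON, where 13.9% were. Egr2 did not differ from input beyond counting error in either group, with log2 ratios of -0.04 (-0.36 to 0.28) and -0.20 (-0.54 to 0.13). From the start of its longest coding transcript the ratios were 0.15 (-0.14 to 0.45) and 0.12 (-0.24 to 0.48), with intervals that also included 0.

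**Figure D2:**
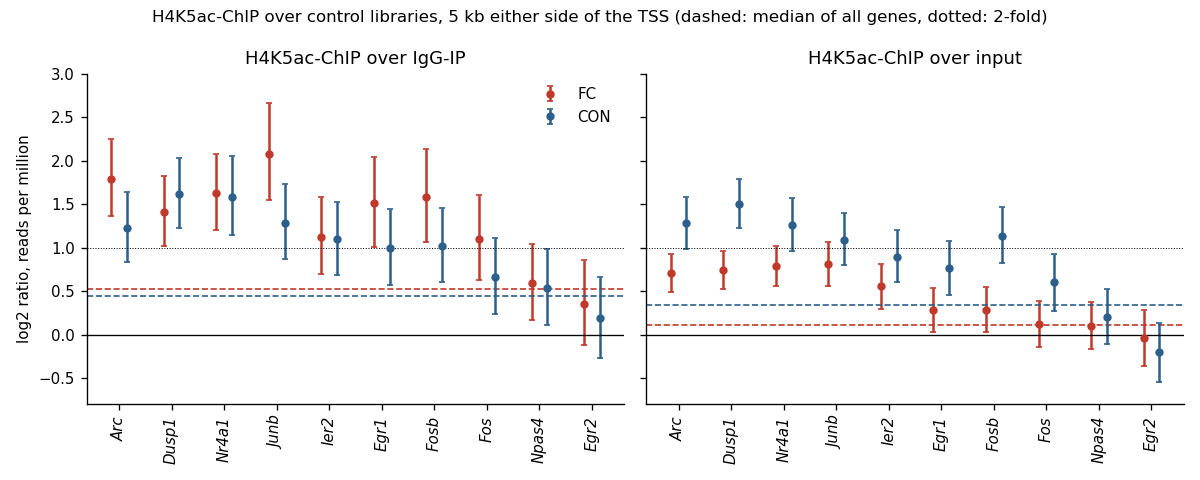
Log2 ratio of H4K5ac-ChIP to IgG-IP (left) and to input (right) at the 10 genes in FC and CON, with exact 95% counting intervals, the median of all genes dashed and 2-fold dotted. In FC, 8 genes passed 2-fold over IgG-IP and none passed it over input, and Egr2, in its window at the outermost TSS, lay lowest in both panels.

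The signal was not confined to the genes themselves. Relative to flanks of 10 to 50 kb on each side in the same library, the median log2 ratio of the window was 0.09 in FC and 0.02 in CON H4K5ac-ChIP, below the medians of 0.16 and 0.14 for protein-coding genes. Junb stood out from its surroundings in both groups, with log2 ratios of 0.64 (0.45 to 0.82) in FC and 0.63 (0.44 to 0.81) in CON. So did Dusp1, with 0.36 (0.20 to 0.52) and 0.39 (0.24 to 0.55), and Arc in FC, with 0.52 (0.36 to 0.68). In CON Arc had 0.21 (0.04 to 0.37), an interval that included the median of protein-coding genes. Npas4 and Nr4a1 had intervals above 0 in FC alone, with 0.28 (0.06 to 0.50) and 0.18 (0.01 to 0.35) against -0.01 and -0.07 in CON. Both of these FC intervals included the median of protein-coding genes. The difference between groups was not tested, and the share of all genes with an interval above 0 was not counted. Fos had a lower density than its flanks in CON, with a log2 ratio of -0.37 (-0.58 to -0.16), where its input was low too, at -0.27 (-0.54 to -0.01). In FC it had -0.18 (-0.40 to 0.02), and Egr2 had -0.19 in FC and -0.17 in CON, with intervals that included 0.

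The main comparison asked whether FC changed H4K5ac at these genes, and the differences were small. H4K5ac-ChIP was slightly higher in FC than in CON at 9 of 10 genes, where 60.2% of annotated genes were higher, and none differed by 1.5-fold in either direction. The log2 ratio of FC to CON, scaled to library size, was highest at Arc with 0.37 (0.15 to 0.58) and at Nr4a1 with 0.28 (0.05 to 0.50), whose intervals lay above 0. This order holds for windows at the outermost TSS. From the start of its longest coding transcript Egr2 had 0.48 (0.14 to 0.81). Of annotated genes, 10.9% had an interval above 0 and 4.17% had one below, and 3.54% were at least 1.5 times higher and 1.67% at least 1.5 times lower. The ratios of Npas4 and Fos were 0.26 each, with intervals of -0.03 to 0.56 and -0.03 to 0.54. Egr2 (0.19), Egr1 (0.13), Junb (0.12), Ier2 (0.08), Dusp1 (0.02) and Fosb (-0.02) followed. The median was 0.16, and all reads of the 10 genes together gave 0.17 (0.09 to 0.25), where the median of all genes was 0.06.

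The input libraries differed more between the groups than the H4K5ac-ChIP libraries did. The FC to CON ratio of input was above 0 at all 10 genes, where 66.6% of annotated genes were, with a median log2 ratio of 0.67 against 0.21 for all genes, and its interval was above 0 at 9, all but Egr2, where 40.4% of annotated genes had one. It passed 1.5-fold at Fos, Fosb, Egr1, Arc, Nr4a1 and Dusp1, 6 of 10, where 16.3% of annotated genes did. Arc, with the highest H4K5ac-ChIP ratio, also had the highest input ratio, 0.94 (0.65 to 1.24). The IgG-IP ratio had a median of -0.08, with an interval that excluded 0 at Junb alone, -0.67 (-1.35 to -0.01). Across 36290 genes the input ratio rose with the GC content of the window (Spearman's rho = 0.836), and across 35618 genes the H4K5ac-ChIP ratio did so weakly (0.199). The IgG-IP ratio fell weakly with GC content across 35813 genes (-0.135). These describe genes of the same pair of libraries and are not independent replicates.

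The FC to CON ratio of these genes depended on how input and GC content were treated. Less the median of GC-matched genes, the median log2 ratio of H4K5ac-ChIP was 0.0081, with 5 of 10 genes above 0, and Arc and Nr4a1 had 0.19 and 0.10. Less the input ratio, it was -0.48, with 1 gene above 0, and Arc and Nr4a1 had -0.57 and -0.48. Less the input ratio with both ratios corrected for GC content, an alternative chosen after seeing the data, it was 0.026. Less the IgG-IP ratio it was 0.31, with 9 genes above 0. The part of sequencing bias in the small FC to CON difference was not tested.

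**Figure D3:**
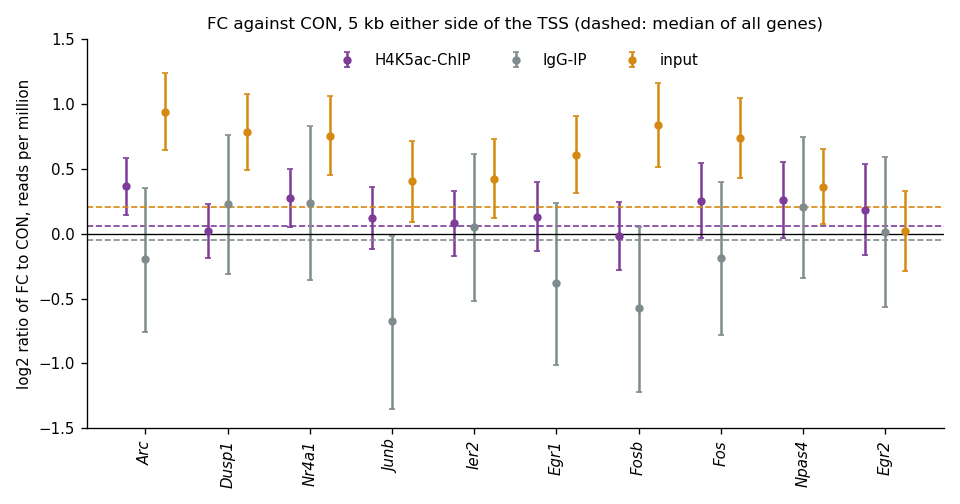
Log2 ratio of FC to CON (vertical axis, scaled to library size) in H4K5ac-ChIP, IgG-IP and input at the 10 genes, with exact 95% counting intervals and the median of all genes dashed. In windows at the outermost TSS, input lay above H4K5ac-ChIP at 9 of 10 genes, and the H4K5ac-ChIP intervals of Arc and Nr4a1 alone lay above 0.

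Within the gene body, from TSS to TTS, the pooled and the median FC to CON ratio were larger than in the 2 kb upstream. Fosb (0.10 in the body, 0.27 upstream) and Egr1 (0.07 and 0.08) went the other way. A difference between these regions was not tested. All body reads of the 10 genes together gave a log2 ratio of 0.29 (0.17 to 0.42), and the median was 0.41 against 0.04 for all genes. Junb, with 37 reads in FC and 27 in CON, had 0.64 (-0.11 to 1.41), and Egr2, with 122 and 91 reads, had 0.61 (0.21 to 1.02). These passed 1.5-fold, 2 of 10 where 4.53% of annotated genes did, and no gene was 1.5 times lower, where 1.96% were. Arc (115 and 92 reads, 0.51), Nr4a1 (321 and 280 reads, 0.38) and Fos (73 and 58 reads, 0.52) also had intervals above 0, with that of Fos starting at 0.00087. With Egr2 that was 4 of 10 bodies, where 14.5% of annotated genes had an interval above 0, and none was below 0, where 8.80% were. Dusp1 went the other way, with 71 and 97 reads and -0.26 (-0.73 to 0.19). Input rose over the bodies as well, with a pooled log2 ratio of 0.68 (0.53 to 0.83). Less the median of GC-matched genes, the median H4K5ac-ChIP ratio of the bodies was 0.17 and no gene passed 1.5-fold.

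In the 2 kb upstream of the TSS no gene passed 1.5-fold in either direction, where 10.3% of annotated genes were higher in FC and 7.06% were lower. All reads of the 10 promoters together gave 0.07 (-0.10 to 0.25). Both controls were higher there, with pooled log2 ratios of 0.72 (0.50 to 0.94) for input and 0.51 (0.08 to 0.95) for IgG-IP. The values ran from -0.46 (-0.96 to 0.03) at Dusp1, with 58 reads in FC and 91 in CON, to 0.45 (-0.04 to 0.95) at Junb, with 77 and 64 reads. Over IgG-IP, 7 promoters were at least 2 times higher in FC and 8 in CON, where 44.5% and 37.5% of annotated genes were. For gene bodies the counts were 8 in FC and 5 in CON, where 33.5% and 25.5% were. Less the median of GC-matched genes, an alternative chosen after seeing the data, 0 promoters passed in FC and 2 in CON. Of the gene bodies, 1 passed in FC and 0 in CON. IgG-IP had only 2 reads at the Egr1 promoter and 3 at the Dusp1 promoter in CON, the promoters that passed. It had 1 read in the body of Junb in FC. The share of all genes that passed after this correction was not counted.

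The window of Egr2 depended on the start that was used. From its outermost TSS it held 139 reads in each group, and from the start of its longest coding transcript it held 170 in FC and 139 in CON, with a log2 ratio of 0.48 (0.14 to 0.81). Input in the latter window was 221 and 126 reads, with a log2 ratio of 0.45 (0.12 to 0.77).

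The distribution around the TSS over broad intervals was unlike that of the average gene. Positions were counted from the outermost TSS. For Egr2 the start of the longest coding transcript lies 2394 bp further downstream, and its intervals were not recounted from there. Over the intervals compared, pooled H4K5ac at the 10 genes was highest 5 to 2 kb upstream of the TSS and lowest in the 500 bp at the TSS, while among the longer intervals the average over protein-coding genes was highest within 2 kb of the TSS. In finer bins of 500 bp the highest pooled value was 1.09 RPKM in FC, at -1000 to -501 bp from the TSS, and 0.973 RPKM in CON, at -3000 to -2501 bp. The average over protein-coding genes was highest at -1000 to -501 bp in both groups, 0.730 and 0.692 with 1 read per position and strand. With 1 read per position and strand, the 10 genes together had 0.930 RPKM in FC and 0.904 in CON from 5 to 2 kb upstream, against means of 0.495 and 0.487 for protein-coding genes. Counting all reads, 880 in FC and 962 in CON, gave 0.928 and 0.892. In the 2 kb upstream the values on distinct positions were 0.826 and 0.796 against 0.658 and 0.620. In the 2 kb downstream they were 0.682 and 0.561 against 0.598 and 0.543, and from 2 to 5 kb downstream 0.860 and 0.700 against 0.543 and 0.532. With all reads, CON in the 2 kb downstream turned to below the average gene, 0.564 against 0.618.

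**Figure D4:**
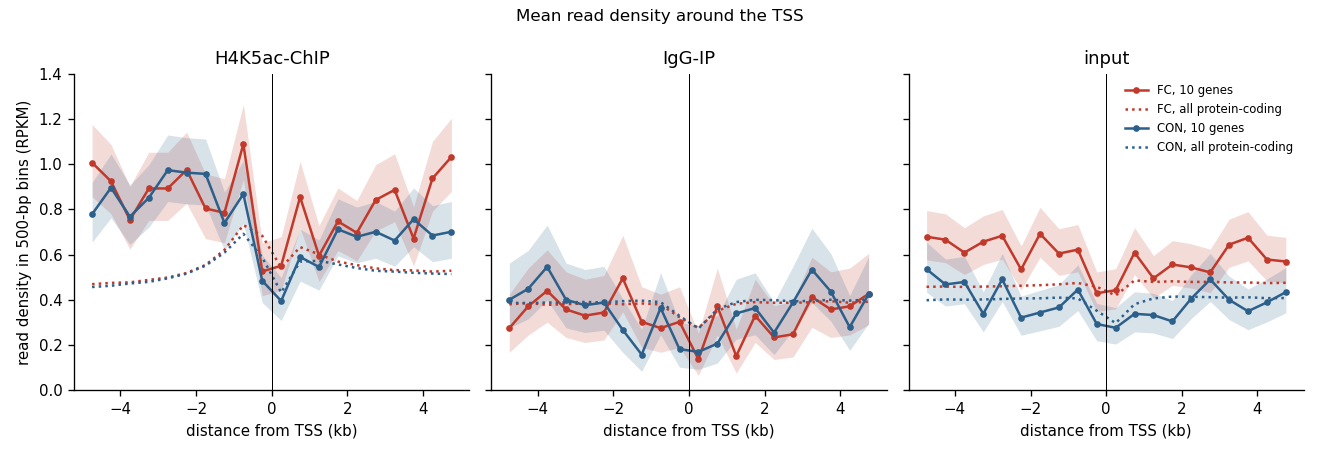
Read density (RPKM, vertical axis) in bins of 500 bp by distance from the TSS (kb), pooled over the 10 genes (points, with shaded exact Poisson 95% intervals) and averaged over protein-coding genes with 1 read per position and strand (dotted), in H4K5ac-ChIP, IgG-IP and input of FC and CON. The points count all reads. H4K5ac-ChIP at the 10 genes lay well above the average gene upstream of 2 kb, lay above it downstream of 2 kb too, and fell at the TSS, where the other libraries also fell. FC input at the 10 genes also lay above the average gene beyond 2 kb on both sides.

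In the 500 bp centred on the TSS, H4K5ac-ChIP reads of the 10 genes together numbered 67 for FC and 64 for CON, a density of 0.424 RPKM (0.329 to 0.538) and 0.356 (0.274 to 0.455). With 1 read per position and strand, the values were 0.444 and 0.346 against 0.607 and 0.491 for protein-coding genes. The log2 ratio of this centre to the rest of the window was, on the same basis, -0.94 for FC (-1.33 to -0.57) and -1.14 for CON (-1.56 to -0.76). For all protein-coding genes together it was 0.13 and -0.12. With all reads it was below 0 at 9 of 10 genes in FC, all but Fos, and at 9 of 10 in CON, all but Egr2, where 47.7% and 57.2% of protein-coding genes were. Arc had 2 reads there in FC and 8 in CON, and Dusp1 had 4 and 3. Input was lower at the centre too, with log2 ratios of -0.69 (-1.04 to -0.36) and -0.84 (-1.37 to -0.36) on distinct positions, against -0.03 and -0.29 for protein-coding genes. With all reads, input was below 0 at 8 of 10 genes in FC and 9 in CON, where 54.1% and 67.2% of protein-coding genes were.

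The upstream region exceeded the first 2 kb of the transcribed region at most of the genes. With 1 read per position and strand, the log2 ratio of the density 5 to 2 kb upstream to that in the 2 kb downstream was 0.45 (FC, 0.27 to 0.63) and 0.69 (CON, 0.51 to 0.87). For all protein-coding genes together it was -0.27 and -0.16. With all reads it was above 0 at 8 of 10 genes in FC, all but Fosb and Egr2, and at 9 of 10 in CON, all but Egr2, where 35.1% and 41.2% of protein-coding genes were. At Egr2 the 2 kb downstream of the outermost TSS ended before the start of its longest coding transcript. Npas4 had the highest ratio in FC, 0.90, from 98 reads upstream and 35 downstream, and Junb had the highest in CON, 1.58, from 135 and 30 reads. Input had the same sign with 1 read per position and strand, 0.29 (0.11 to 0.46) and 0.56 (0.31 to 0.81), and so did IgG-IP, with 0.44 (0.01 to 0.88) and 0.71 (0.33 to 1.11). With all reads, input was above 0 at 8 of 10 genes in FC and 9 in CON, where 48.6% and 58.4% of protein-coding genes were. IgG-IP was above 0 at 8 in each group, where 58.6% and 59.0% were.

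Compared with GC-matched protein-coding genes in each interval, the upstream excess of the median was seen in H4K5ac-ChIP of both groups and not in input. IgG-IP showed a smaller one in CON and none in FC, and single genes varied. From 5 to 2 kb upstream the median over the 10 genes was 1.44-fold in FC, with 8 genes above 1, and 1.42-fold in CON, with 9 above 1. In the input libraries it was 1.01-fold and 1.00-fold, and in IgG-IP 1.00-fold in FC and 1.25-fold in CON, with 4 and 7 genes above 1. Arc was the highest gene of H4K5ac-ChIP in both groups, at 1.69-fold and 1.73-fold, and was also above 1 in input, at 1.46-fold and 1.18-fold, and in IgG-IP, at 1.5-fold and 2.07-fold. Egr2, with positions from its outermost TSS, was the lowest gene there in both groups, at 0.551-fold in FC and 0.732-fold in CON. In the 2 kb upstream the H4K5ac-ChIP medians were 1.11-fold and 1.14-fold, with 7 genes above 1 in each, while IgG-IP had 1.25-fold in FC and 0.794-fold in CON. In the 500 bp at the TSS they were 0.708-fold and 0.735-fold, with 2 and 4 genes above 1. Input there was at 1.00-fold in both groups, with 5 and 3 genes above 1. IgG-IP, from 16 and 13 reads in all, was at 1.00-fold in FC and 0.25-fold in CON. Counts there were low, with medians per gene of 6.5 and 6 H4K5ac-ChIP reads and 7 and 3.5 input reads. In the 2 kb downstream the H4K5ac-ChIP medians were 0.965-fold and 0.833-fold, and from 2 to 5 kb downstream 1.00-fold and 0.966-fold.

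**Figure D5:**
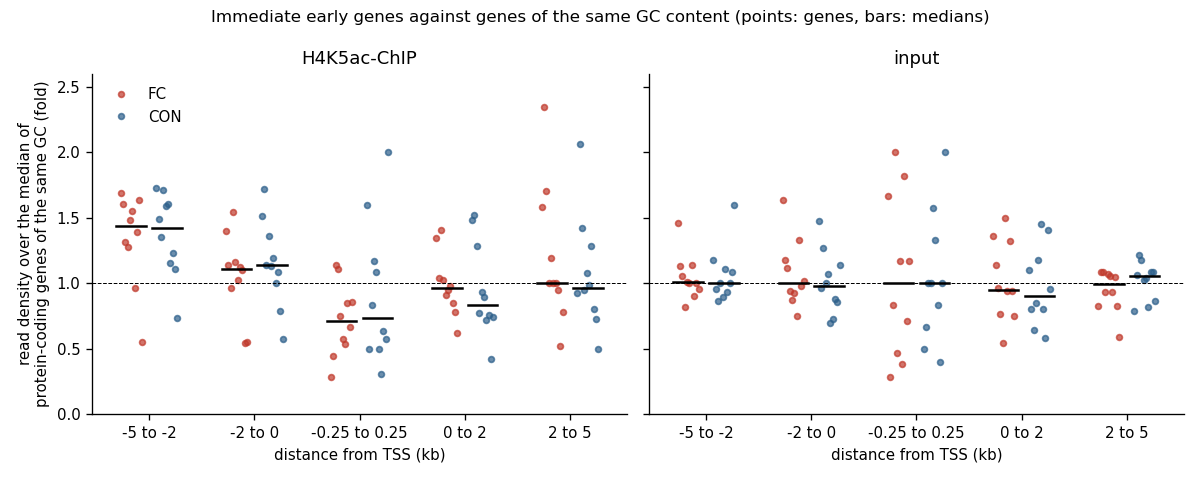
Read density of each of the 10 genes divided by the median of GC-matched protein-coding genes (fold, vertical axis) in intervals around the TSS (kb), for H4K5ac-ChIP and input of FC (red) and CON (blue), with bars at the medians. From 5 to 2 kb upstream the H4K5ac-ChIP medians were 1.44 in FC and 1.42 in CON, while those of input were close to 1.

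Between the groups, the FC to CON ratio was larger downstream of the TSS than upstream. The pooled log2 ratio of H4K5ac-ChIP was 0.06 (-0.08 to 0.19) from 5 to 2 kb upstream, 0.30 (0.10 to 0.49) in the 2 kb downstream and 0.28 (0.14 to 0.42) from 2 to 5 kb downstream, with 5, 8 and 8 of 10 genes above 0. The medians of protein-coding genes in these intervals were 0.02, 0.15 and 0.02, and 52.0%, 63.9% and 52.6% of them were above 0. The input ratio was above 0 in each of these intervals, with 0.55, 0.74 and 0.51. A difference between the sides was not tested, since there was 1 library per group.

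Other genes of the activity response were described in the same way. Of 30 other early response genes, none differed 1.5-fold between FC and CON in either direction, 5 had an interval above 0 and 1 below, and the median log2 ratio was 0.05. Of annotated genes, 3.54% were at least 1.5 times higher and 1.67% at least 1.5 times lower, and 10.9% had an interval above 0 and 4.17% one below. The lowest was Nr4a2, a relative of Nr4a1, with -0.34 (-0.67 to -0.02), and the highest was Egr3, a relative of Egr1, with 0.37 (0.06 to 0.69). Their ratio of H4K5ac-ChIP to IgG-IP had a median of log2 1.35 for FC and 1.02 for CON, close to the 1.46 and 1.06 of the 10 genes.

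The genes listed for the later wave had a lower median ratio to IgG-IP, a difference that was not tested. Single genes of this list varied widely, in FC from log2 -1.20 at Pax1 to 2.08 at Nptx1. For 16 later activity-induced genes the ratio to IgG-IP had a median of log2 0.18 for FC and 0.27 for CON, and the median FC to CON ratio was 0.01, with 1 interval above 0 and 1 below, where 10.9% and 4.17% of annotated genes had one. Their windows were lower in GC, with a median of 45.7% against 52.5% for the 10 genes. Less the median of GC-matched genes, an alternative chosen after seeing the data, the later genes had medians of -0.63 (FC) and -0.29 (CON) for the ratio to IgG-IP, with 5 of 16 above 0 in each group, and the 10 genes 0.11 and -0.0025. Bdnf, the neurotrophin that strengthens synapses, had the lowest FC to CON ratio, -0.55 (-0.92 to -0.18), from 98 and 163 reads, and Acan, a proteoglycan of perineuronal nets, had the highest, 0.33 (-0.01 to 0.67). These values are for windows at the outermost TSS, and other starts of these genes were not examined. The 24 upstream regulators, which include Creb1 and Srf, had a median FC to CON ratio of 0.06, 5 intervals above 0 and none below, against the same shares. The lowest was the kinase gene Rps6ka3, with -0.44 (-0.97 to 0.07), and the highest the Creb1 coactivator gene Crtc1, with 0.38 (0.14 to 0.63). None of the genes of these lists passed 1.5-fold.

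The protein-coding genes whose densities in the 6 libraries lay nearest to the median of the 10 were Grin2d, H6pd, Sec61a1, Adat1 and Id3, at Euclidean distances of 0.0646 to 0.110 on the log2 scale. The 10 genes themselves lay at 0.184 (Ier2) to 1.31 (Egr2).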

How the data were processed

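The authors cross-linked hippocampal chromatin, sequenced 50-bp SOLiD reads and aligned them to mm9 with Bioscope, allowing several mappings per read. The deposited BED files hold 1 line per aligned read, and their score column, per the file contents a mapping score from 4 to 100, is the only deposited value. Nothing was normalized by the authors. The methods give 3 hippocampal samples per group, cross-linked separately, and a pooling of libraries after gel purification. Each group and antibody has 1 file here, and which of the 3 samples it holds was not stated.

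All deposited reads overlapping a region by at least 1 bp were counted with Python 3.11.15 and NumPy 2.4.6. Genes came from GENCODE on mm9 (NCBIM37), and 1 gene of the marker lists was matched through an older symbol. Ratios were scaled to library reads, with Clopper-Pearson intervals, and densities had Poisson intervals (SciPy 1.17.1). Ratios over all genes needed at least 20 reads in both libraries together and 1 in each. GC content was compared in steps of 1%. Depth ranged from 14549689 to 45673239 reads. Counting was checked on simulated data. All 10 genes, the extreme genes of each activity list and the 5 nearest genes are named. The genes, lists and comparisons were chosen with earlier results of these data known. No test was made with 1 library per group. Alternatives were other regions, another TSS, 1 read per position and strand, a score of at least 30, read midpoints, centring, GC content, input, flanks and no minimum of reads.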

Additional observations from a re-analysis of the deposited data

How the results depend on the processing

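The FC to CON median of H4K5ac-ChIP (log2 0.16 over 5 kb either side of the TSS) was 0.41 in gene bodies, 0.032 in the 5 kb upstream, 0.0081 less genes of the same GC content, -0.48 less input and 0.31 less IgG-IP. With alternatives chosen after seeing the data, it was -0.11 in the 2 kb upstream less genes of the same GC content, and 0.026 less input with both corrected for GC content. The count of genes 1.5 times higher in FC (0) was 2 in gene bodies (Junb, Egr2), 1 less IgG-IP (Junb) and 1 less input with both corrected for GC content (Egr2). The count 1.5 times lower (0) was 2 less input (Fosb, Dusp1) and 1 in the 2 kb upstream less genes of the same GC content (Dusp1). Less input, Arc had -0.57 and Nr4a1 -0.48, and 1 of the 10 genes was above 0. In the 2 kb upstream Nr4a1 had -0.0027, with an interval of -0.58 to 0.57.

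The median over IgG-IP in FC (1.46) was 1.29 in the 5 kb upstream, 0.94 with the median of all genes at 0, 0.11 less genes of the same GC content, 0.42 with input and 0.089 with flanks as control. Corrected for GC content it was 0.11 in gene bodies and -0.080 in the 2 kb upstream. In CON (1.06) it was 1.60 and 1.37 in the 2 and 5 kb upstream, 0.62 with the median of all genes at 0, -0.0025 less genes of the same GC content and 0.023 with flanks. Corrected for GC content it was -0.24 in gene bodies and 0.41 in the 2 kb upstream. The count 2 times above IgG-IP in FC (8) was 4 with the median of all genes at 0, and 0 with GC correction, input or flanks. Corrected for GC content it was 1 in gene bodies (Junb) and 0 in the 2 kb upstream. In CON (6) it was 2 with the median of all genes at 0, and 0 with GC correction or flanks. Corrected for GC content it was 0 in gene bodies and 2 in the 2 kb upstream (Egr1, Dusp1). The causes were not tested.

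Counting 1 read per position and strand, reads with a score of at least 30, or read midpoints moved each of these medians by less than its counting error and each count by at most 1.5 times. No paired analysis was possible because there was 1 library per group and antibody. With 139 to 402 H4K5ac-ChIP reads per gene in the main window, counting error alone spanned about the size of the FC to CON differences. At 31 to 65 reads in that window, IgG-IP limited the ratios to it. In gene bodies and the 2 kb upstream IgG-IP counts were lower still, down to 1 read in the body of Junb in FC.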
